A study of Mus musculus with 9 samples.

Results

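Fhl1, Fhl2, Fhl3 and Lima1, 4 genes whose proteins carry LIM domains, were followed across 9 expression arrays of mouse NIH 3T3 cells, an established fibroblast line. All probe sets that the platform annotation ties to 1 of these symbols and to no other were taken. This gave 9 of the 45101 probe sets on the array: 2 for Fhl1, 1 for Fhl2, 1 for Fhl3 and 5 for Lima1. No probe set with several symbols included any of the 4.

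A LIM domain is a zinc-binding fold that mostly serves to hold other proteins. FHL proteins consist of LIM domains and little else. They sit at focal adhesions and along actin filaments, can enter the nucleus, and are known as cofactors of transcription factors. FHL2 is known both as a target and as a binding partner of serum response factor (SRF), which activates many genes of the actin cytoskeleton. Lima1 encodes EPLIN, an actin-binding protein with a LIM domain, which bundles actin filaments, slows their turnover and links them to cell-cell junctions. SRF is switched on by myocardin-related transcription factors (MRTFs). In resting cells MRTFs are held by G-actin, the monomeric form of actin.

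The arrays fall into 3 groups of 3. Control cells received neither actin drug. A second group received cytochalasin D at 2 µM for 90 min, and the last received cytochalasin D at 2 µM together with latrunculin B at 5 µM, also for 90 min. Both drugs bind actin and break down filaments. Cytochalasin D releases MRTF from G-actin, whereas latrunculin B holds G-actin in a form that still binds MRTF. All cells, the controls included, had been serum-starved and had received cycloheximide, which blocks translation, at 3 µg/ml for 2 h. The titles of this last group mention latrunculin B without the other drug, while the agent label and the series design give both, and the group is used here as the agent label has it. The replicates, numbered 1, 3 and 7, are independent biological replicates per the series design. The cells are a single line, measured at a single time and dose of each drug.

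Intensities are given on a linear scale as deposited, with array medians of 7.55 to 7.82. All 10 fibroblast markers checked, such as Col1a1, Vim and Fn1, passed the filter on low values and exceeded an intensity of 100, and 0 of them were called between cytochalasin D and control. Their summed intensity was 115959 to 123770 in controls, 112391 to 120114 with cytochalasin D and 116058 to 118272 with both drugs. The 7 endothelial, 7 epithelial and 4 adipocyte markers on the array had no gene above 100. Of 8 macrophage and leukocyte markers 2 were above 100, with Cd14 the highest, and their sum was 377 to 449 in controls, 288 to 390 with cytochalasin D and 339 to 395 with both drugs. Because FHL1 and FHL3 are prominent in muscle, 8 skeletal muscle markers were also read. Their sum was 66.8 to 69.2 in controls, 846 to 1759 with cytochalasin D and 84.4 to 118 with both drugs. Acta1, skeletal muscle alpha-actin and an SRF target, made up this difference. Without Acta1 the sums were 48.1 to 50.1, 47.2 to 48.6 and 48.0 to 51.8, and Myod1 and Myog, which define muscle cells, lay at 4.34 to 4.42 and 5.81 to 6.13 on all arrays, below the median of each array.

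To be tested, a probe set had to exceed the 40th percentile of the array, which was 6.15 to 6.34, on 3 or more arrays. Of the 9 member probe sets 8 were tested. The exception was Fhl1 probe set 1459003_at, which read 4.94 to 5.02 in controls, 4.97 to 5.91 with cytochalasin D and 4.96 to 5.07 with both drugs, at or below the 40th percentile on every array. Changes are differences of log2(intensity + 16), fitted with limma over all 9 arrays, with p-values adjusted by Benjamini-Hochberg over the 27034 probe sets tested. A call means an adjusted p under 0.05.

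Cytochalasin D raised 6 of the 8 tested member probe sets, those of Fhl1, Fhl2 and 4 of the 5 of Lima1, and lowered 0. The 4 Lima1 probe sets read the same gene and are not separate findings. In such bulk RNA, a change in the number of cells of a kind and a change in RNA per cell cannot be told apart. Among all tested probe sets 1.14% rose and 0.422% fell in this comparison. The median change of the 8 was 1.79 on the log2 scale, and that of all tested probe sets was -0.00. The treated and control intensities did not overlap for 6 of the 8, against 11.5% of all tested probe sets. With both drugs together 1 of the 8, a Lima1 probe set, rose over control and 0 fell, with 0.0999% of all probe sets rising and 0.0111% falling. The median change was then 0.76 for the 8 and 0.00 for all tested probe sets, and 5 of the 8 did not overlap with control, against 8.07% of all tested. Between cytochalasin D alone and both drugs, 1 of the 8, that of Fhl1, was called, higher with cytochalasin D alone. Of all tested probe sets 0.248% were called higher there and 0.0111% lower. In that comparison 6 of the 8 did not overlap, against 6.25% of all tested, with a median difference of 0.72 for the 8 and -0.01 for all. Replicate numbers tie the arrays together in both comparisons that involve the double treatment, and with the number as a block the counts were 4 of 8 higher than control and 5 of 8 higher with cytochalasin D alone, against 0.311% of all tested probe sets in each.

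**Figure D1:**
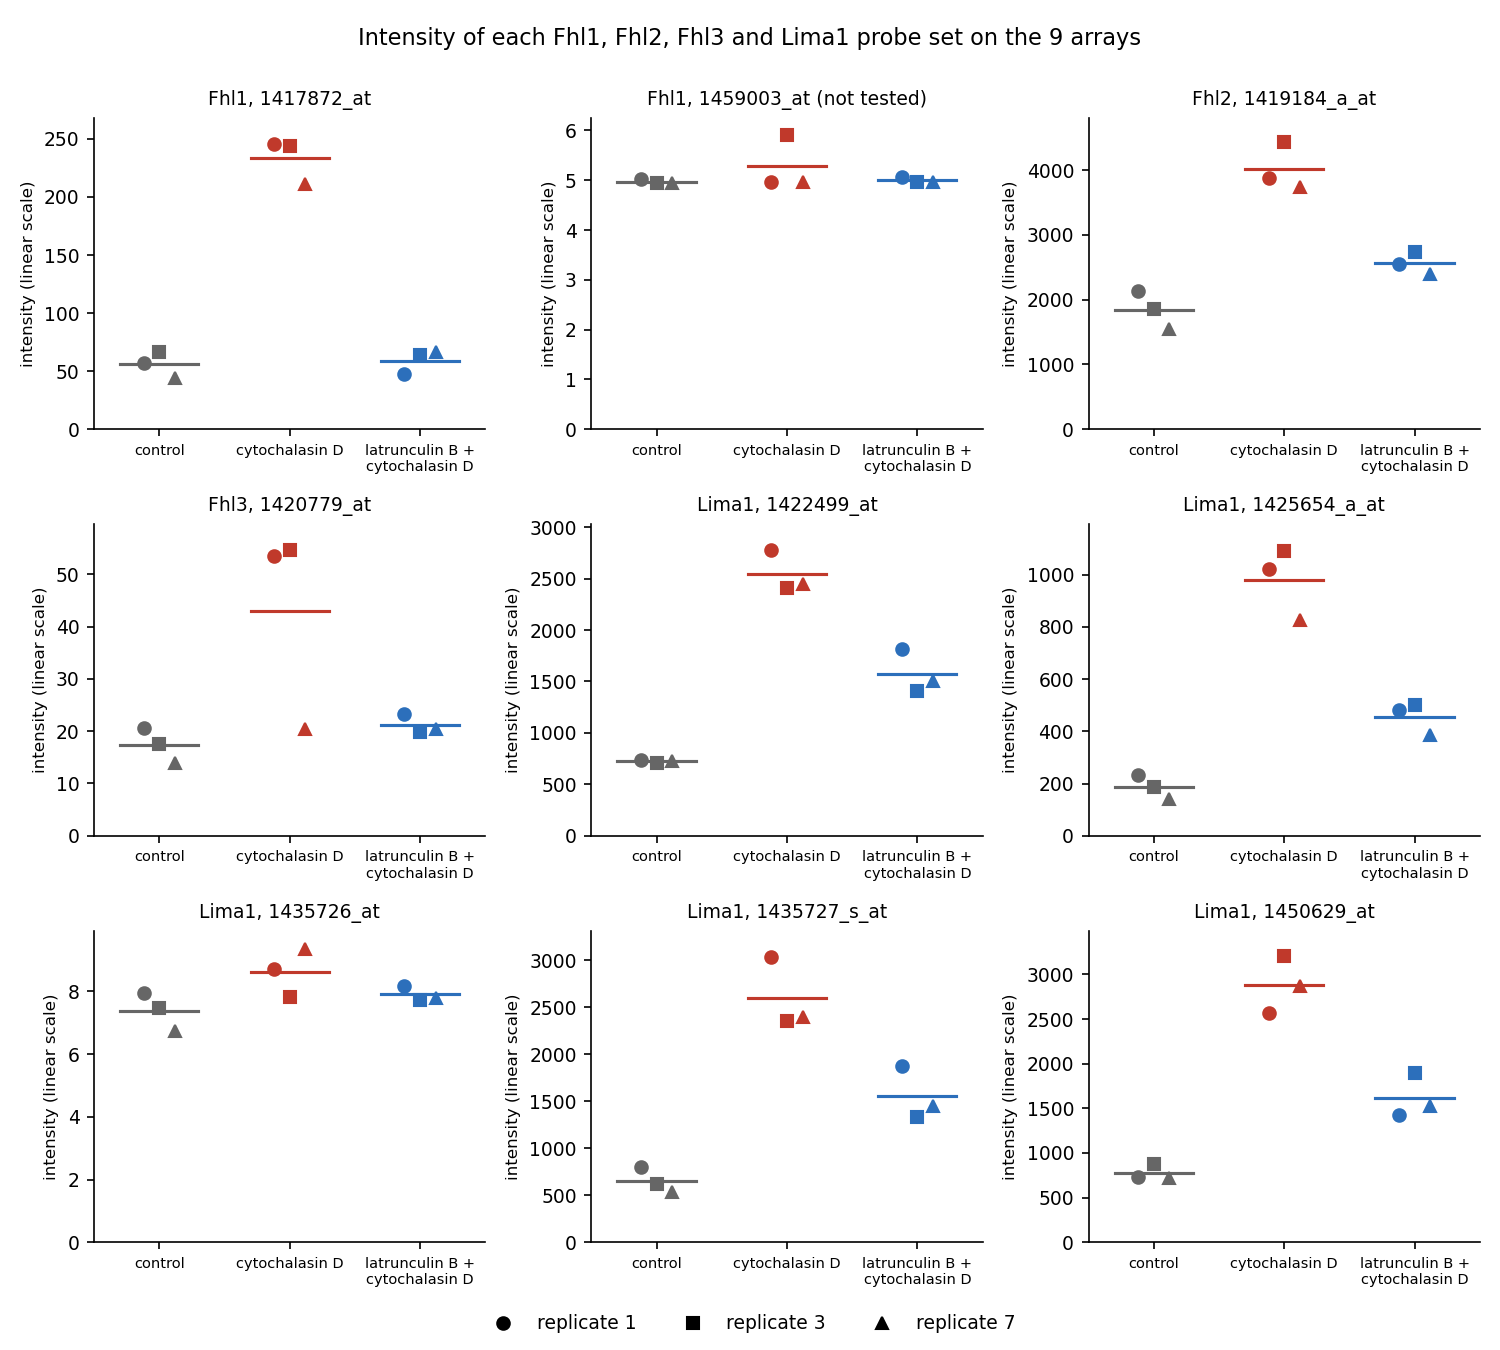
Intensity (linear scale, each axis from 0) of the 9 probe sets of Fhl1, Fhl2, Fhl3 and Lima1 in control, cytochalasin D and double-treated cells; each symbol is 1 array, its shape gives the replicate number, and the bar is the group mean. Fhl1 1417872_at stands high in the cytochalasin D group only (means 55.9, 233 and 59.1), whereas Fhl2 and 4 Lima1 probe sets also stand above control with both drugs.

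Fhl1 encodes a LIM protein of muscle and other contractile cells. On controls 1, 3 and 7 its probe set 1417872_at read 57.1, 66.2 and 44.2 (55.9 ± 11.0, SD, n = 3). With cytochalasin D it read 246, 244 and 211 (233 ± 19.6, SD, n = 3). With both drugs it read 47.3, 63.6 and 66.4 (59.1 ± 10.3, SD, n = 3). All cytochalasin D arrays were above all 6 other arrays, and the double-treated arrays lay among the controls. The ratio of the mean intensities, cytochalasin D over control, was 4.18. On the log2(intensity + 16) scale, which makes changes of dim probe sets smaller, the rise was 1.80 (SE 0.15, 95% interval 1.46 to 2.15, limma adjusted p = 0.00262). With both drugs the change from control was 0.07 (95% interval -0.28 to 0.41, limma adjusted p = 0.9998). Cytochalasin D alone exceeded both drugs by 1.74 (95% interval 1.39 to 2.08, limma adjusted p = 0.0159). That last call was lost in a fit of the 6 arrays compared (adjusted p = 0.0598), and without cytochalasin D replicate 3 (0.0681) or double-treated replicate 1, 3 or 7 (0.0601, 0.0864 and 0.0698). The study group followed up Fhl1 and Lima1 on these same samples, so their rise is not independent evidence of a direction.

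Fhl1 lies on the X chromosome (GRCm38.p6, positions 56731209 to 56793346). RefSeq promoter windows, 250 bases before to 50 bases after an annotated start, were searched for the CArG box, the sequence that SRF binds, which is read the same way on both strands. Of 2 Fhl1 windows 1 held a match. The 150 bases before that start are shown 5′ to 3′ because they carry the match, in capitals, whose first base lies 102 bases before the start (chrX:56779533-56779682, plus strand).
Fhl1: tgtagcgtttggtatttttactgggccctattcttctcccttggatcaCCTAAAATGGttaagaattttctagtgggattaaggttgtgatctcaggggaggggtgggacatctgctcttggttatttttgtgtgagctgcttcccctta

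Fhl2 encodes the FHL protein best known as a transcriptional cofactor. On controls 1, 3 and 7 its only probe set, 1419184_a_at, read 2141, 1852 and 1542 (1845 ± 299.8, SD, n = 3). With cytochalasin D it read 3874, 4438 and 3737 (4016 ± 371, SD, n = 3). With both drugs it read 2553, 2733 and 2402 (2563 ± 166, SD, n = 3). The 3 groups did not overlap, and on every replicate number the order was control, both drugs, cytochalasin D. Cytochalasin D raised Fhl2 by 1.12 (SE 0.13, 95% interval 0.82 to 1.42, limma adjusted p = 0.00869), a ratio of mean intensities of 2.18. In a fit of the 6 arrays of this comparison alone, the same change was not called (adjusted p = 0.0778). Both drugs against control gave 0.48 (95% interval 0.18 to 0.78, limma adjusted p = 0.448). Cytochalasin D against both drugs gave 0.64 (95% interval 0.34 to 0.94, limma adjusted p = 0.226). So neither step passed the threshold in this fit, which leaves out the replicate number, although the arrays of the groups were separate.

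Both RefSeq windows of Fhl2, on chromosome 1, held a CArG box match. They belong to different annotated starts, and the 150 bases before each are shown 5′ to 3′ on the minus strand with the match in capitals. The match of window 1 (chr1:43163962-43164111) begins 31 bases before its start and that of window 2 (chr1:43196762-43196911) begins 96 bases before.
Fhl2 window 1: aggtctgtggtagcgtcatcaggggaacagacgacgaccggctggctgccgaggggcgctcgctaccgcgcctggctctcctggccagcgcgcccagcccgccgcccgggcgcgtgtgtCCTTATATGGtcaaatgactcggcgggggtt
Fhl2 window 2: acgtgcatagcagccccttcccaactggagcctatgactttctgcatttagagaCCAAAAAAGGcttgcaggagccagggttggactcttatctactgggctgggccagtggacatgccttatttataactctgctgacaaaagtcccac

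Fhl3 encodes an FHL protein found in skeletal muscle and in many cell lines. Its probe set 1420779_at read 20.6, 17.5 and 13.9 on controls 1, 3 and 7 (17.3 ± 3.36, SD, n = 3). With cytochalasin D it read 53.6, 54.7 and 20.4 (42.9 ± 19.5, SD, n = 3), and with both drugs 23.4, 19.7 and 20.5 (21.2 ± 1.90, SD, n = 3). Cytochalasin D replicates 1 and 3 were above every other array, while replicate 7 lay just under the highest control. The change with cytochalasin D, 0.76 (SE 0.25, 95% interval 0.16 to 1.36), was not called (limma adjusted p = 0.329). Without cytochalasin D replicate 7 it was 1.08 and was called (limma adjusted p = 0.00955), and without any other single array it was 0.60 to 0.83 and was not. Both drugs against control gave 0.16 (95% interval -0.44 to 0.76), and cytochalasin D against both drugs gave 0.60 (SE 0.25, limma adjusted p = 0.9995). The 1 RefSeq window of Fhl3, on chromosome 4, held no CArG box match.

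Lima1 was read by 5 probe sets. For the one with the highest mean, 1450629_at, controls 1, 3 and 7 read 734, 878 and 718 (777 ± 88.1, SD, n = 3). With cytochalasin D it read 2570, 3201 and 2865 (2878 ± 316, SD, n = 3), and with both drugs 1424, 1900 and 1526 (1617 ± 251, SD, n = 3). The groups were fully separate, with the double-treated arrays in the middle. The rise with cytochalasin D was 1.87 (SE 0.14, 95% interval 1.54 to 2.19, limma adjusted p = 0.00192), a ratio of mean intensities of 3.71. Both drugs against control gave 1.04 (95% interval 0.71 to 1.36), with an adjusted p of 0.0755 in limma and 0.00862 with the replicate number as a block. Cytochalasin D against both drugs gave 0.83 (95% interval 0.51 to 1.16), with an adjusted p of 0.126 in limma and 0.0235 with the block.

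Probe set 1422499_at of Lima1 read 740, 708 and 730 in controls, 2783, 2405 and 2449 with cytochalasin D, and 1815, 1405 and 1508 with both drugs. It rose by 1.78 with cytochalasin D (SE 0.10, limma adjusted p = 0.000926) and by 1.09 with both drugs (SE 0.10, 95% interval 0.86 to 1.33, limma adjusted p = 0.0298). The second of these calls was lost when any 1 of the 9 arrays was left out (adjusted p = 0.0563 to 0.132) and in the fit of 6 arrays (0.173), and it held with the replicate block (0.0128). The remaining step, cytochalasin D over both drugs, was 0.69 (adjusted p = 0.0798 in limma, 0.0415 with the block).

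Probe set 1425654_a_at read 234, 188 and 142 in controls, 1023, 1090 and 827 with cytochalasin D, and 483, 500 and 387 with both drugs. It had the greatest change of the 8 tested member probe sets, 2.30 (SE 0.19, limma adjusted p = 0.00293), with 1.23 for both drugs against control (adjusted p = 0.120 in limma, 0.0269 with the block). Cytochalasin D over both drugs was 1.07 (adjusted p = 0.174 in limma, 0.0367 with the block). Probe set 1435727_s_at, whose suffix marks probes that can also bind other transcripts, read 801, 618 and 538, then 3036, 2353 and 2403, then 1873, 1334 and 1448 in the same order. It gave 1.98 with cytochalasin D (SE 0.19, limma adjusted p = 0.00480) and 1.23 with both drugs (adjusted p = 0.114 in limma, 0.0118 with the block). Cytochalasin D over both drugs was 0.74 (adjusted p = 0.502 in limma, 0.0415 with the block). In all 4 of these probe sets the control, double-treated and cytochalasin D arrays formed separate ranges in that order. Over the 9 arrays the 4 correlated with each other at Pearson's r = 0.924 to 0.987, which is a description, since they read the same RNA on the same arrays. The fifth, 1435726_at, read 6.75 to 7.95 in controls, 7.83 to 9.34 with cytochalasin D and 7.74 to 8.16 with both drugs, close to the median of the arrays. Its change of 0.07 with cytochalasin D was not called (limma adjusted p = 0.418).

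The 1 RefSeq window of Lima1, on chromosome 15, held a CArG box match that begins 47 bases before the start. The 150 bases before that start (chr15:99820150-99820299, minus strand) are shown 5′ to 3′ with the match in capitals.
Lima1: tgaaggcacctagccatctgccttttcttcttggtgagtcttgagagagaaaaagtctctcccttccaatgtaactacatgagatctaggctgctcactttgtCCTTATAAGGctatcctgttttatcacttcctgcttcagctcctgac

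**Figure D2:**
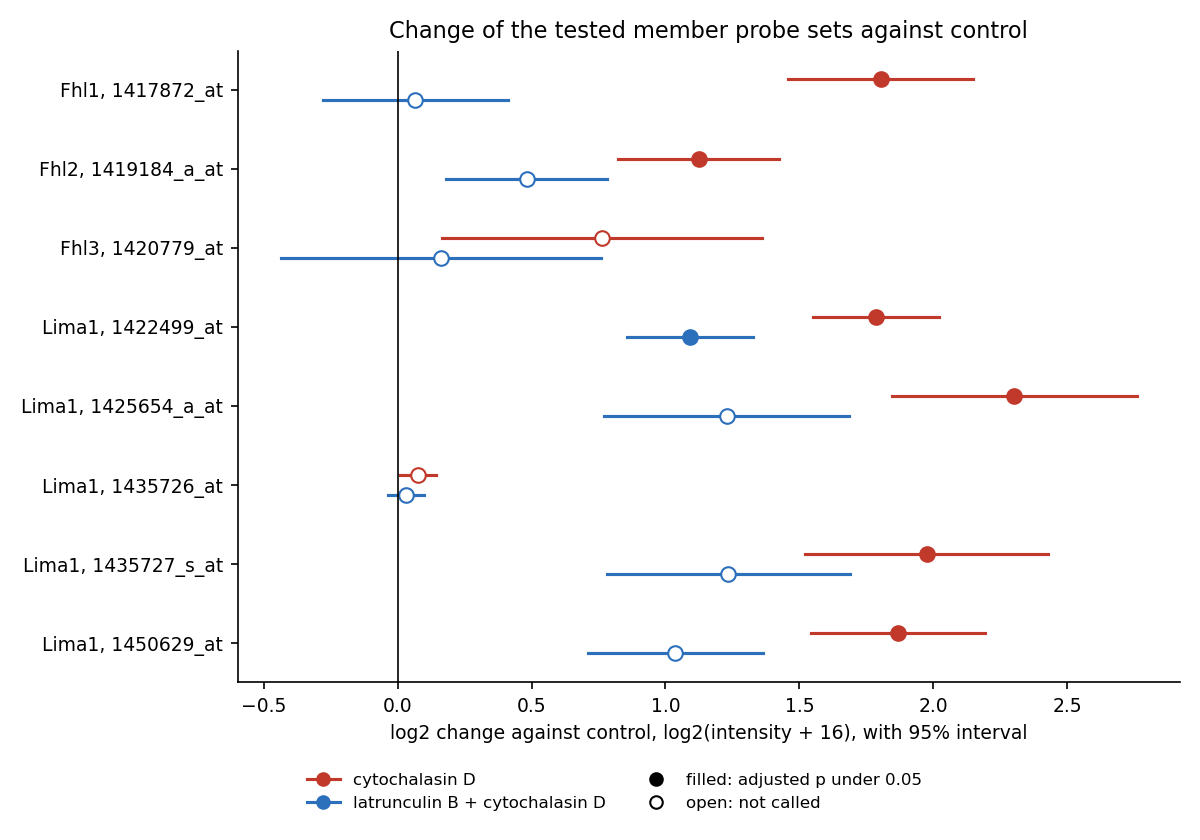
Change against control on the log2(intensity + 16) scale (x axis, points with 95% intervals) for the 8 tested member probe sets (y axis), for cytochalasin D and for both drugs; filled points are called at an adjusted p under 0.05. For Fhl1 the change falls from 1.80 to 0.07 when latrunculin B is also present, and for Lima1 1450629_at from 1.87 to 1.04.

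Differences between the genes' responses were tested on 1 probe set per gene, that of highest mean, with an exact two-sided permutation test of 3 against 3 arrays, which cannot go below p = 0.1. The 6 pairs were adjusted together, so no difference could pass the threshold, and their sizes are given with standard errors. Both the test and the standard errors leave out the replicate number. For both drugs against control they therefore ignore the pairing of those arrays. With cytochalasin D, Fhl1 and Lima1 differed in response by -0.06 (SE 0.14, exact permutation p = 0.7), with overlapping arrays. With a pseudocount of 1 this difference was 0.17. With both drugs Fhl1 responded less than Lima1 by 0.97 on the log2 scale (difference -0.97, SE 0.13, exact permutation p = 0.1, adjusted p = 0.15), and the arrays did not overlap. This second family of tests was added after the data were seen. Fhl2 responded less than Lima1 both with cytochalasin D (-0.74, SE 0.16) and with both drugs (-0.56, SE 0.18), each at an exact permutation p of 0.1 with separate arrays. Fhl1 against Fhl2 gave 0.68 (SE 0.12, exact permutation p = 0.1) with cytochalasin D and -0.42 (SE 0.17, exact permutation p = 0.2) with both drugs. With cytochalasin D Fhl1 minus Fhl3 was 1.04 (SE 0.27), Fhl2 minus Fhl3 was 0.36 (SE 0.27) and Fhl3 minus Lima1 was -1.11 (SE 0.34). With both drugs the same differences were -0.10 (SE 0.19), 0.32 (SE 0.09) and -0.88 (SE 0.20). Fhl3 read close to the pseudocount, and with a pseudocount of 1 the difference between Fhl2 and Fhl3 with cytochalasin D was -0.02.

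The remaining family members, Fhl4 and Fhl5, which are known mainly from testis, stayed low. Fhl4 read 6.81 to 6.99 with 1 probe set, which was tested and gave -0.01 with cytochalasin D, and 5.76 to 5.93 with the other, which was not tested. Fhl5 read 4.29 to 4.37 on all 9 arrays and was not tested. The 1 window of Fhl4 and the 2 of Fhl5 held no CArG box match.

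A list of 45 further actin- and adhesion-linked LIM-domain genes gave 42 genes on the array and 37 tested, each by its probe set of highest mean. With cytochalasin D 8 of the 37 rose, 0 fell and 29 did not pass, while 1.37% of all 12660 genes tested this way rose and 0.561% fell. The median change of the 37 was -0.00, as was that of all genes. The 8 include Csrp1 (1.66), an SRF target that binds alpha-actinin and zyxin, Tgfb1i1 (1.47), the focal adhesion protein Hic-5, and Pdlim7 (1.75) and Pdlim5 (1.34), which tether kinases to the actin cytoskeleton. Lims2 (1.38), a partner of integrin-linked kinase, rose from a mean intensity of 13.5 to 61.1. Mical2 (0.68) and Mical1 (0.45), enzymes that oxidise actin filaments, and Tes (0.41), a focal adhesion protein, rose less. Leaving out 1 array gave 5 to 6 called genes, and the fit of the 6 arrays compared gave 3. Csrp1, Tgfb1i1, Lims2 and Mical2 were called in all 9 such fits, Pdlim7 in all but the one without cytochalasin D replicate 3 (adjusted p = 0.0513), Mical1 in 2, and Pdlim5 and Tes in 1 each. Several of these genes have other probe sets, and 1 of 7 was called for Pdlim5, 2 of 3 for Pdlim7 and 1 of 2 for Mical2 and for Tes. Among the 29 genes that did not pass, 1 probe set other than that of highest mean was called for Lasp1 (of 8), Lpp (of 7), Ldb3 (of 2) and Lims1 (of 5). Ajuba, an adhesion and Hippo pathway protein, gave -0.52 and was not called (limma adjusted p = 0.0738).

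With both drugs 1 of the 37 rose over control, Csrp1 (0.84, limma adjusted p = 0.0413), and 0 fell, while 0.134% of all genes rose and 0.0079% fell. It was called in 1 of the 9 fits without an array and not with the replicate block (0.0746). Tgfb1i1 (0.83, limma adjusted p = 0.101) and Pdlim7 (1.16, limma adjusted p = 0.160) were not called. Cytochalasin D alone exceeded both drugs for 3 of the 37, and was lower for 0, against 0.316% and 0.0158% of all genes. These were Lims2 (1.23, limma adjusted p = 0.0336), Csrp1 (0.83, limma adjusted p = 0.0343) and Mical2 (0.61, limma adjusted p = 0.0471), each called in 1 of the 9 fits without an array. With the block Lims2 was called (0.0332), and Csrp1 (0.0833) and Mical2 (0.0883) were not. The block gave 2 genes of the list for both drugs against control and 1 for cytochalasin D against both drugs, and the fits of 6 arrays gave 0 in each. The mean intensity of Lims2 was 16.5 with both drugs, close to its control mean of 13.5, as was seen for Fhl1.

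**Figure D3:**
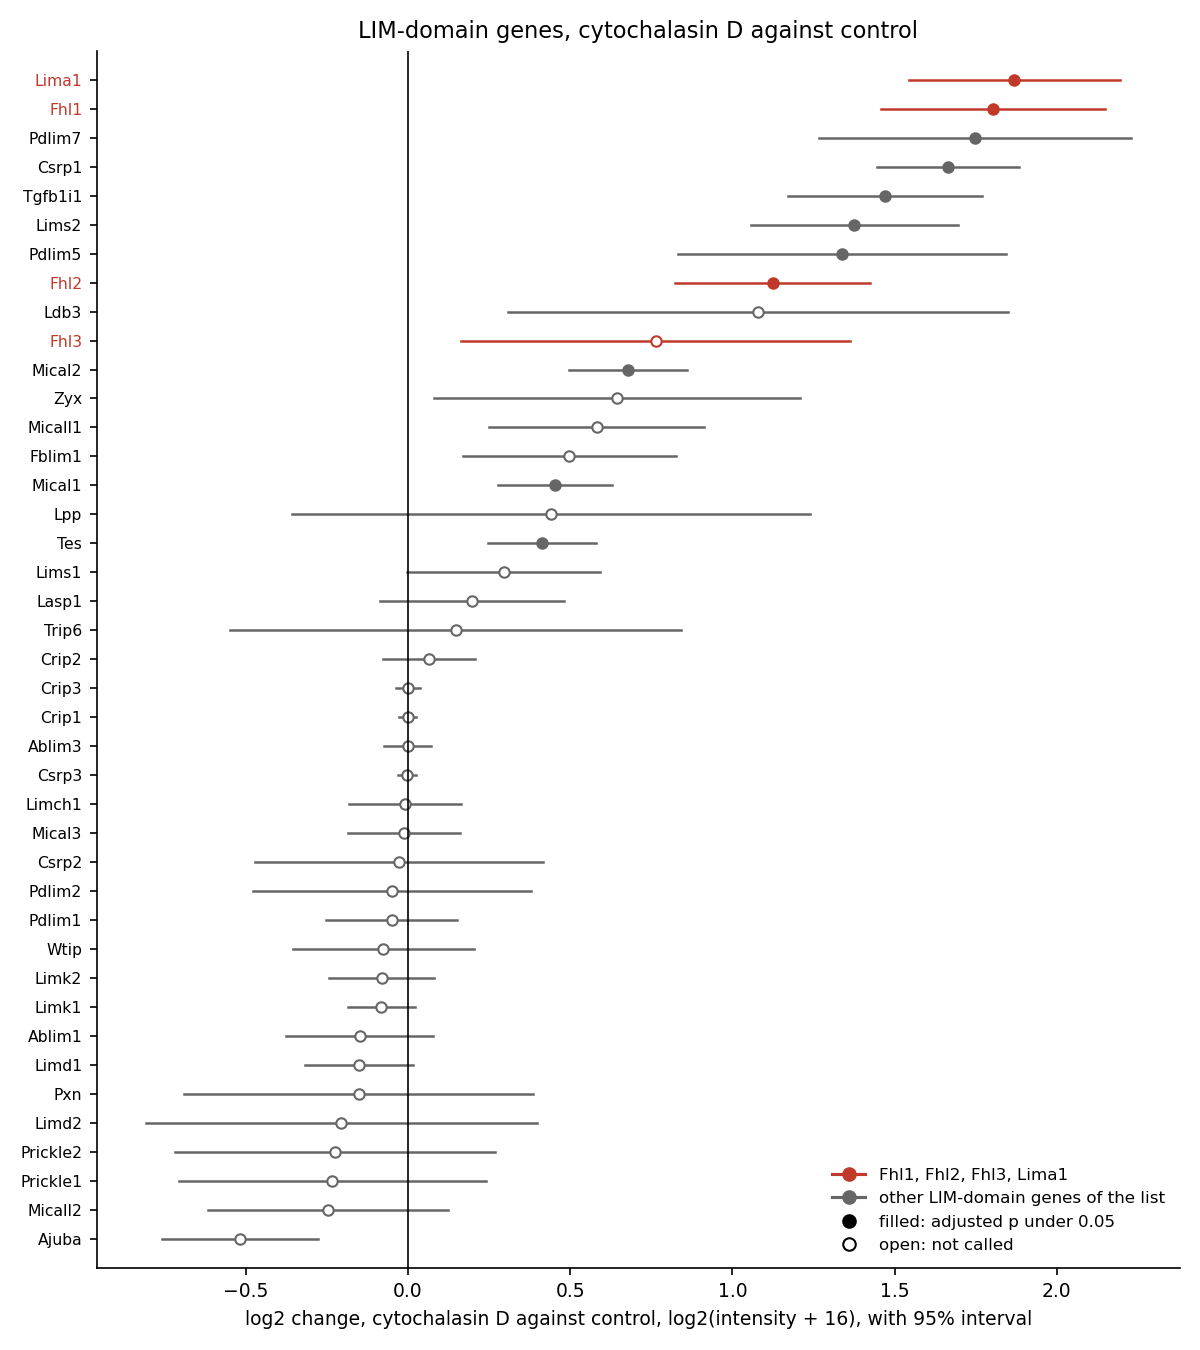
Change with cytochalasin D against control on the log2(intensity + 16) scale (x axis, with 95% intervals) for the 37 tested LIM-domain genes of the list and for Fhl1, Fhl2, Fhl3 and Lima1 (in red), 1 probe set per gene; filled points are called. Lima1 (1.87), Fhl1 (1.80) and Fhl2 (1.12) lie on the right among the 8 called genes of the list, and most other LIM-domain genes lie near 0.

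Proteins reported to bind FHL proteins were checked as a list of 19 genes, of which 14 were tested. With cytochalasin D 1 of the 14 rose and 0 fell, against 1.37% and 0.561% of all genes. This gene was Srf itself, whose mean intensity went from 187 to 1475 (log2 change 2.87, SE 0.21, limma adjusted p = 0.00192). With both drugs 1 of the 14 rose, against 0.134% of all genes, and it was again Srf, by 2.05 to a mean of 827 (limma adjusted p = 0.0393), a call lost in all 9 fits without an array and held with the block (0.00862). Jun, whose protein binds FHL2, gave 1.30 with cytochalasin D and was not called (limma adjusted p = 0.0530). Sphk1 gave -0.55 (0.0708) and Nr4a1 gave 2.01 (0.307), neither of them called. Of 10 genes listed as partners of EPLIN all were tested, and 2 rose with cytochalasin D, Vcl (vinculin, 1.33, limma adjusted p = 0.0196) and Actg1 (gamma-actin, 0.47, limma adjusted p = 0.00175), with 0 falling, against the same shares of all genes. With both drugs Actg1 rose (0.41, limma adjusted p = 0.0213) and the other 9 were not called. That call held in 3 of the 9 fits without an array. The Vcl call held in 4 of the 9 fits without an array, and 1 of its 2 probe sets rose. Ctnna1, the alpha-catenin to which EPLIN binds at junctions, gave -0.06 with cytochalasin D and was not called. Srf, Vcl and Actg1, the called genes of these partner lists, are also on the list of known MRTF-SRF targets and are counted again there.

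Among 33 tested genes of a list of 35 known MRTF-SRF targets, 22 rose with cytochalasin D and 0 fell, with a median change of 1.34, while 1.37% of all genes rose. With both drugs 5 rose and 0 fell, with a median of 0.59, while 0.134% of all genes rose. Cytochalasin D exceeded both drugs for 7 of the 33, against 0.316% of all genes. Cnn1 is among the 33, the 22 and the 7, but it was tested only through the cytochalasin D group. Its means of 4.59 in controls and 5.90 with both drugs were under the filter level, so its calls are no support. The changes of Fhl1 (1.80) and Lima1 (1.87) with cytochalasin D were above this median and that of Fhl2 (1.12) was below it. With both drugs Lima1 (1.04) was above the median of the list, and Fhl2 (0.48) and Fhl1 (0.07) were below it. Leaving out 1 array gave 16 to 21, 0 to 4 and 2 to 7 called genes in the 3 comparisons, and the fits of 6 arrays gave 16, 0 and 1. With the block 6 genes were called for both drugs against control and 3 for cytochalasin D against both drugs. Csrp1, Tgfb1i1, Pdlim5 and Pdlim7 are also in the LIM-domain list, as is Zyx, which was not called.

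Only the 5 genes most like each member over the 9 arrays, by Pearson's r of log2(intensity + 16), were named, and members shared none. For Fhl1 they were Enpp3 (r = 0.987), 5033430I15Rik (0.982), Cnn1 (0.979), Kank1 (0.976) and Actg2 (0.973). Cnn1 (calponin) and Actg2 (enteric gamma-actin) are smooth muscle genes. Cnn1 changed by 1.36 with cytochalasin D and 0.09 with both drugs, and Actg2 by 2.51 and 0.26. The mean intensity of Cnn1 was 4.59 in controls and 5.90 with both drugs, under the filter level of 6.15 to 6.34, and 37.0 with cytochalasin D, the group through which it came to be tested. For Fhl2 they were Rab23 (r = 0.995), Myl9 (0.994), Acta2 (0.992), Tagln (0.990) and Tpm1 (0.987), of which the last 4 encode contractile proteins. Myl9 changed by 3.56 with cytochalasin D and 1.68 with both drugs. For Lima1 they were Traf5 (r = 0.987), Errfi1 (0.987), Dstn (0.986), Mob3a (0.985) and Pitpna (0.985). Errfi1, an inhibitor of the EGF receptor, changed by 2.31 and 1.21, and Dstn, the actin-severing protein destrin, by 0.83 and 0.43. For Fhl3 they were Dact3 (r = 0.976), Tmem45a2 (0.967), Rfxank (0.966), Zfp414 (0.966) and Tmem170 (0.964), none of them called with cytochalasin D. Between the members r was 0.95 for Fhl2 and Lima1, 0.89 for Fhl1 and Fhl2, 0.84 for Fhl1 and Lima1, and 0.70 to 0.81 for the pairs with Fhl3. All these values describe 9 arrays in 3 groups, which the genes share, and they carry no test. Since the genes were picked for their likeness to a member, their own changes are no support for its pattern.

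The CArG box matches can be set beside these values. Of all 32851 promoter windows of the same length 535, or 1.63%, held a match, as did 488 of 27025 genes (1.81%). Fhl1, Fhl2 and Lima1 each had at least 1 window with a match, and Fhl3 had none. Among genes with a window, 4 of 35 in the LIM-domain list (11.4%) and 8 of 30 in the MRTF-SRF list (26.7%) had one. The match of Lima1 has the same 10 letters as those in the windows of Cnn2, Filip1l and Vcl, genes of the MRTF-SRF list, and these letters occur in 14 windows in all (0.0426%). Cnn2 (1.08), Filip1l (1.32) and Vcl (1.33) were called higher with cytochalasin D, in all 9, in 3 and in 4 of the 9 fits without an array. Sites were looked up by gene only for the members and the 2 lists. These genes thus come from a list of known targets, and the response of genes with the remaining windows was not read. The 4 genes of the LIM-domain list with a match were Ldb3, Nebl, Prickle3 and Trip6, of which 2 were tested, too few to read. By the probe sets of highest mean 0 of these 2 were called (Ldb3 1.08, limma adjusted p = 0.268, and Trip6 0.15). The arrays of Ldb3 did not overlap (means 8.98 in controls and 41.5 with cytochalasin D), and 1 of its 2 probe sets was called. The match of Trip6 begins after the annotated start. Of the 27 tested genes of that list with a window and no match 6 rose. In the MRTF-SRF list 7 of 7 tested genes with a match rose, and 11 of 21 with a window and no match. Of all genes 1.37% rose with cytochalasin D. The MRTF-SRF list holds known targets and was chosen with earlier results of these data known. Whether a match goes with a rise was not tested. The match in window 1 of Fhl2 is, read on the other strand, the same 10 letters as 1 of the 2 in the window of Srf, and occurs in 24 windows (0.0731%). The letters of Fhl1 occurred in 19 windows (0.0578%) and those of Fhl2 window 2 in 25 (0.0761%). The sites are printed with 10 bases on each side, 5′ to 3′ on the strand of the gene, so that the shared letters and the unlike flanks can be seen.
Lima1: ctcactttgtCCTTATAAGGctatcctgtt
Cnn2: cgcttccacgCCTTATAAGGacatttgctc
Filip1l: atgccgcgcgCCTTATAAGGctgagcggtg
Vcl: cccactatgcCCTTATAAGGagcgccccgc
Fhl2 window 1: gcgcgtgtgtCCTTATATGGtcaaatgact
Srf: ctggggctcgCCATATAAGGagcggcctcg
Fhl2 window 2: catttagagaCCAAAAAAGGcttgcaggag
Fhl1: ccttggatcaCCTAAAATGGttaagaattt
A match describes letters in a window and is not a measured binding site.

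**Figure D4:**
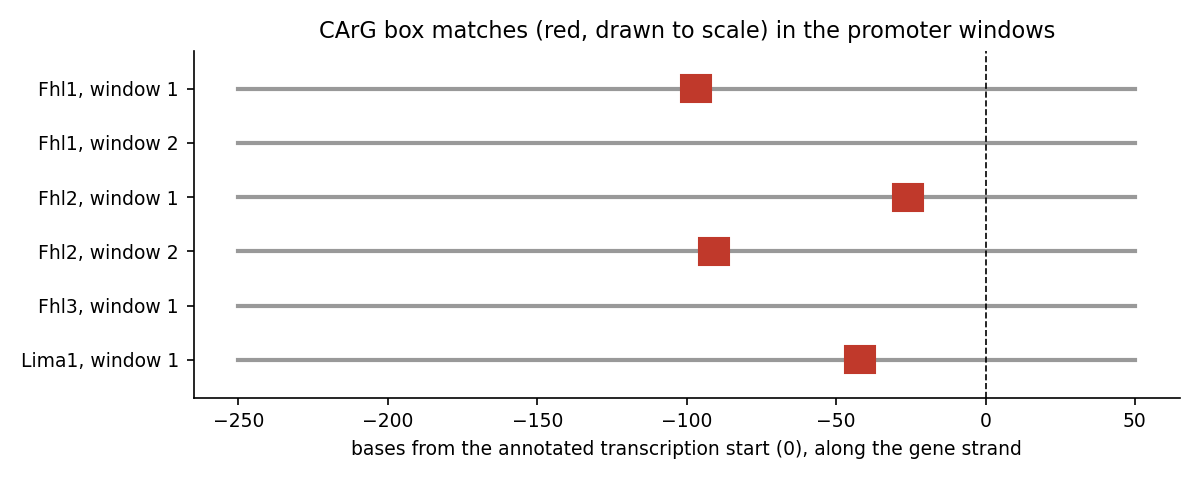
Position of CArG box matches (red, to scale) in the RefSeq promoter windows of Fhl1, Fhl2, Fhl3 and Lima1; the x axis gives bases from the annotated transcription start (dashed line, 0) along the strand of the gene, from 250 before to 50 after. Matches begin 102 bases before the start in Fhl1 window 1, 31 and 96 before in the 2 windows of Fhl2 and 47 before in Lima1, and there is none in Fhl1 window 2 or in Fhl3.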

How the data were processed

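RNA of 9 NIH 3T3 cultures, 3 per group, was measured on Affymetrix arrays. The intensities were normalized by the authors and deposited untransformed, with 1 value per probe set and array. MAS5 and GCRMA are both named, with no role, in the submitters' processing notes, so which of them made the intensities is not given in the sources used here. The 64 control probe sets were left out. Symbols came from the platform annotation, and 34945 probe sets carried 1, 932 several and 9160 none. Of those with 1, 34741 had their gene identifier in the RefSeq gene table of GRCm38.p6, which changed 0 symbols.

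Values were taken as log2(intensity + 16) and fitted with limma 3.58.1 under R 4.3.3 (lmFit, eBayes, 1 coefficient per group). Tests were two-sided, adjusted by Benjamini-Hochberg within each comparison. The fit was tested on simulated data whose arrays varied independently, so ties between arrays of the same replicate number were not covered. Limma p-values of the main fit rest on the spread within groups, pooled over all groups and moderated across probe sets. The 3 arrays a group limit the precision. The comparisons with control share the same 3 control arrays. Named genes are all members, up to 4 genes of smallest adjusted p per list and comparison, all called genes of the LIM-domain list (named after their values were seen) and the 5 most alike genes per member. Some others, such as Ajuba, Ctnna1, Cnn2 and Filip1l, are named outside this rule. The members and lists were chosen with earlier results of these data known.

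Whether replicate numbers pair arrays was checked by correlating the arrays' deviations from their group means. Same-numbered arrays gave r = 0.834, 0.413 and 0.663 for control with double-treated arrays and 0.726, 0.411 and 0.756 for cytochalasin D with double-treated arrays, so these are treated as paired. Arrays of different groups and numbers gave -0.722 to 0.391. For control with cytochalasin D, 0.710 and 0.653 lay above that range and 0.0762 within it. Whether those groups are paired is undecided, and the main fit uses no block in any comparison. Alternatives were the pseudocount, the filter, quantile normalization, the replicate block, an intensity trend, a fit of 6 arrays and leaving out each array. Promoter sequences are RefSeq's (GRCm38.p6).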

Additional observations from a re-analysis of the deposited data

How the results depend on the processing

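With cytochalasin D against control, 6 of the 8 member probe sets were called in the main analysis and 6 to 7 when 1 array was left out. In the fit of the 6 arrays compared 5 were called, and Fhl2 was lost. With the replicate block 6 were called, though whether the numbers pair these groups is undecided. The counts of the other comparisons moved more. Both drugs against control gave 1 member probe set in the main analysis, 4 of 7 with a stricter filter (60th percentile), 4 with the replicate block, 2 with an intensity trend, and 0 with no filter, in the fit of 6 arrays or with any 1 array left out. Cytochalasin D against both drugs gave 1, then 3 of 7 with the stricter filter, 5 with the replicate block, 0 in the fit of 6 arrays and 0 to 1 with an array left out. Over all probe sets cytochalasin D against control gave 423 calls, 1044 with the replicate block, 159 in the fit of 6 arrays and 230 to 487 with an array left out. Both drugs against control gave 30, then 14 with a pseudocount of 64, 8 with no filter, 74 with the stricter filter, 15 after quantile normalization, 121 with the block, 48 with the trend, 1 in the fit of 6 arrays and 0 to 42 with an array left out. Cytochalasin D against both drugs gave 70, then 99 with the block, 16 with no filter, 9 in the fit of 6 arrays and 3 to 59 with an array left out. The change of Fhl1 with both drugs turned sign without control replicate 7 (-0.0555) or double-treated replicate 7 (-0.00607) and spanned -0.0555 to 0.185 over the fits without an array. The difference in response between Fhl1 and Lima1 with cytochalasin D turned sign with a pseudocount of 1 (0.170) and spanned -0.179 to 0.00208 over the fits without an array, turning without cytochalasin D replicate 7. That between Fhl2 and Fhl3 turned sign with a pseudocount of 1 (-0.0199), and that between Fhl1 and Fhl3 with both drugs spanned -0.181 to 0.0639, turning without double-treated replicate 1 or control replicate 3. The cause of these shifts was not tested. Lima1 1435726_at read close to the array medians, and why it did not follow the other Lima1 probe sets was not tested.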
